A study of Homo sapiens with 8 samples.

Results

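The comparison described here set ρ0 cells against parental MDA-MB-231 cells after both had been starved of arginine for 48 h. Its members are 4 of the 8 libraries of the series, chosen by their labels: 2 libraries of starved ρ0 cells and 2 libraries of starved parental cells. The parental cells are MDA-MB-231, an established line from a human triple-negative breast cancer with a mesenchymal character. The ρ0 line is a derivative of it, labelled clone 27, whose mitochondrial DNA had been depleted. For the starved groups of both lines the labels give arginine deiminase, an enzyme that degrades arginine in the medium, at 0.3 µg/mL for 48 h in full growth medium, whereas the paper's methods describe a medium made without arginine. The other 4 libraries, 2 of each line in full medium, served to show which differences between the lines were already there without starvation. The ρ0 line was obtained from another laboratory and, by the paper's methods, was kept in ethidium bromide, uridine and pyruvate, while the methods list no such supplements for the parental line. Ethidium bromide, culture history, clonal origin and loss of mitochondrial DNA therefore cannot be told apart in any difference below, and 1 clone stands for the ρ0 state. The labels do not say whether the 2 libraries of a group came from separate cultures. The p-values measure the spread between libraries within groups, estimated over all 8 libraries, and this spread may be technical.

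Cells without mitochondrial DNA cannot make the subunits of the respiratory chain that this small genome encodes, so they make ATP by glycolysis and depend on added pyruvate and uridine. Loss of respiration also changes the signals that mitochondria send to the nucleus. Arginine starvation is a different stress: cells that lack ASS1, the enzyme that joins citrulline and aspartate on the way to arginine, depend on arginine from the medium. When it runs out, uncharged tRNA activates the kinase GCN2 (EIF2AK4), eIF2α is phosphorylated, and translation of the transcription factor ATF4 rises. ATF4 then drives genes of amino acid synthesis, amino acid uptake and redox balance, together with the pro-death factor CHOP (DDIT3).

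The 4 starved libraries held between 25259503 and 31022155 counts, of which between 4.16% and 5.74% fell on the top 20 genes of a library. The biological coefficient of variation between the paired libraries was 2.25% in starved parental cells and 1.84% in starved ρ0 cells, against 5.18% in parental and 25% in ρ0 cells in full medium. Each comparison with full medium below rests on that loose ρ0 pair. The fit estimated spread over all 8 libraries together (12.4%). Standard errors and p-values of the starved comparison therefore also draw on the loose pair and not on the tight starved pairs alone. The line labels were checked against known features of MDA-MB-231. VIM, AXL, CD44, MSN, CAV1 and FOSL1, which mark its mesenchymal state, had at least 101 CPM (TMM-normalised counts scaled by library size) in each starved library. CDKN2A, which is deleted in this line, had at most 3 counts in any of the 8 libraries, and its neighbours CDKN2B and MTAP had at most 1. The hormone receptors ESR1 and PGR had at most 6 counts. The markers ERBB2, CDH1 and EPCAM did not match between the lines. CDH1 and EPCAM, which mark epithelial cells, had at most 2 counts in each starved parental library. Both were far higher in starved ρ0 cells (log2 6.77 for CDH1 and 9.62 for EPCAM). ERBB2 was higher there too, without passing the threshold for a call given below. Whether these differences bear on the identity of the ρ0 line was not tested. The ρ0 label itself could not be checked, since 0 of the 13 protein-coding genes of the mitochondrial genome looked for were in the table of counts. Of 12 leukocyte markers, 7 were tested and their summed level lay between 52.6 and 55.3 CPM in starved parental and between 134 and 137 CPM in starved ρ0 libraries, mostly from CD68 and LAPTM5, with PTPRC at 3 counts or fewer per library. The 7 tested endothelial markers summed to between 187 and 189 CPM and between 244 and 254 CPM, mostly from ESAM, and CDH5 had 2 counts or fewer. The 3 tested melanocytic markers summed to between 89.5 and 97.9 CPM and between 29.8 and 31.6 CPM, mostly from MITF, and TYR had 0 counts. The 8 tested fibroblast and muscle markers summed to between 16.9 and 19.3 CPM in both lines. Of these lists, 2 leukocyte, 2 endothelial, 1 melanocytic and 2 fibroblast markers were higher, and 1 endothelial and 2 melanocytic markers lower, in starved ρ0 cells. Whether other cells took part in any result was not tested. In bulk RNA, fewer cells of a kind and less RNA per cell cannot be told apart.

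After 48 h of starvation, 2858 of 15262 tested genes were higher in ρ0 than in parental cells, which is 18.7% of them, and 2557 genes, or 16.8%, were lower. Calls required a difference of more than 2-fold in either direction and an adjusted p under 0.05 (edgeR's quasi-likelihood test with Benjamini-Hochberg adjustment). Together these were 35.5% of the tested genes, and the 2 starved ρ0 values did not overlap with the 2 starved parental values for any of the 5415 called genes, which was also so for 90.8% of all tested genes. Without the fold threshold, 5024 genes were higher and 5120 lower. The median over all tested genes was -0.01, which the TMM scaling sets near 0. Differences were often very large: 349 genes were called with more than a 32-fold higher and 356 with more than a 32-fold lower fitted level in ρ0 cells. Some genes were near 0 in only 1 of the starved lines. With at most 3 counts in both starved parental libraries, 42 genes reached at least 10 CPM in both starved ρ0 libraries, and 41 genes had the opposite pattern.

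**Figure D1:**
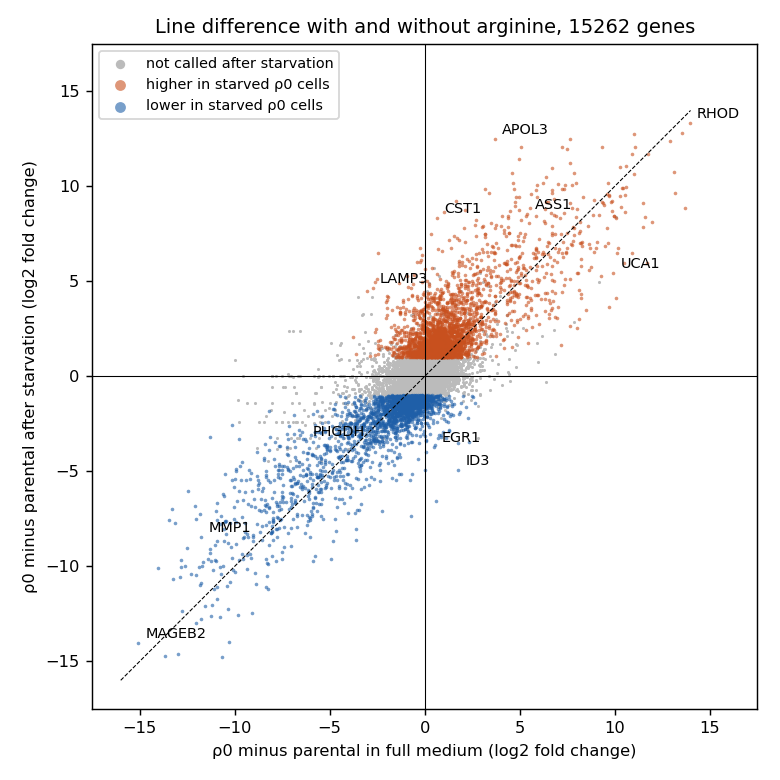
Each point is 1 of the 15262 tested genes, with its line difference in full medium on the x axis and after starvation on the y axis, both as log2 fold change of ρ0 minus parental cells. Orange points were called higher and blue points lower in starved ρ0 cells, the dashed line marks equal differences, and 2878 of the 5415 called genes were called in the same direction under both conditions, whereas APOL3, CST1 and LAMP3 lie above the line and ID3 and EGR1 below it.

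Among the genes of starved ρ0 cells with the largest differences, those with no counts in starved parental cells came from several classes. RHOD, a small GTPase of endosome traffic, had 0 counts in both starved parental libraries and 1301 and 1085 in the starved ρ0 libraries, at least 395-fold higher against a floor of 3 counts per library. TSPYL5 had 0 and 0 against 946 and 754 counts, at least 281-fold higher. CTSF, a lysosomal cysteine protease, had 0 and 0 against 909 and 712 counts, at least 267-fold higher. RARRES3, a growth regulator induced by retinoids and interferon, was at least 222-fold higher, APOL3 of the apolipoprotein L family at least 221-fold and the phospholipase PLBD1 at least 211-fold. Lack of overlap between the starved lines was a condition for naming these 6 genes. APOL3 alone of them had over 2 CPM in parental cells in full medium (2.19 and 2.15 CPM).

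A further group had a few reads in starved parental cells. SERPINB9, the inhibitor of granzyme B, had 3 and 2 counts in starved parental against 9628 and 7793 in starved ρ0 libraries, a ratio of 3467 (95% exact interval 1485 to 10678, which covers counting error only). TNFSF10, the death ligand TRAIL, had 1 and 0 against 2267 and 1856 counts, a ratio of 4102 (736 to 162075). TNS4, a focal adhesion protein, had 2 and 3 against 4872 and 4048 counts, a ratio of 1775 (760 to 5468). The other genes with the largest differences were PPP2R2C, a subunit of protein phosphatase 2A, the chemokine CX3CL1, the interferon-induced proteins BST2 and GBP4, the pseudogene NUDT16P1, and the tight junction protein CLDN7, with 4 and 3 against 2823 and 2254 counts. All had under 0.2 CPM in each starved parental library and at least 19.8 CPM in each starved ρ0 library.

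The largest differences in the other direction included several genes normally read in the germline. MAGEA12, a cancer-testis antigen of the X chromosome, had 3005 and 3445 counts in starved parental and 0 in both starved ρ0 libraries, at least 1069-fold lower against the same floor. EPB41L3, a membrane skeleton protein, had 3008 and 3330 against 0 and 0 counts, at least 1051-fold lower. IL13RA2, a decoy receptor for interleukin 13, had 2749 and 3086 against 0 and 0, at least 967-fold lower. MAGEB2 was at least 655-fold lower and HS6ST2, a heparan sulphate sulphotransferase, at least 615-fold. DMRT2, PGM5, EPHA3, CSAG1, TMEM47, SHANK1 and KBTBD8 also had 0 counts in both starved ρ0 libraries and between 546 and 850 counts in each starved parental library. MAGEA6 and TENM3 had 1 count or none in starved ρ0 cells and between 1220 and 2848 in starved parental cells. MAGEA6 has near-identical copies among which the counting could have divided reads. Of 66 cancer-testis genes in the table, 4 were tested and 4 were called lower, but these passed the filter on low counts only through parental cells, so that the count carries no support of its own.

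Interferon-stimulated genes were mostly higher in starved ρ0 cells. They are switched on by STAT and IRF factors after interferon is sensed, or by IRF3 after foreign or misplaced nucleic acid is sensed, and mitochondrial DNA and RNA that leave mitochondria are known triggers. Of 51 tested members 39 were higher in starved ρ0 cells, 1 was lower and 11 were not called, beside 18.7% and 16.8% of all tested genes, with a median log2 fold change of 3.82. XAF1 had 0 and 0 counts in starved parental against 561 and 466 in starved ρ0 libraries, at least 170-fold higher. BST2, a tether that holds virus particles at the cell surface, had 1 and 0 against 714 and 619 counts. IFI27 had 4 and 3 against 1582 and 1258 counts, a large difference (log2 8.61, standard error 0.46, adjusted p = 5.0e-06). IFIH1, the RNA sensor MDA5, had 10 and 5 against 2351 and 1865 counts (log2 8.10, standard error 0.79, adjusted p = 8.2e-05). The starved lines did not overlap in these 4 genes, which held for every called gene. The 1 lower member was IFITM2, a membrane protein that restricts virus entry. It had 99.2 and 97.2 CPM in starved parental and 11.3 and 11.6 CPM in starved ρ0 cells (log2 -3.10, standard error 0.15, adjusted p = 3.2e-06). IRF1, a transcription factor of the interferon response, was higher (log2 2.21, standard error 0.11, adjusted p = 4.6e-06). IFNB1, the gene of interferon β, had 0 counts in all 8 libraries. It lies in the 9p21 region of the deleted CDKN2A, where IFNE and HACD4 had 0 counts too. A lost gene and a silent gene therefore cannot be told apart for IFNB1. With a filter of at least 10 counts in every library, 37 members were tested and 25 were higher, with a median of 2.50.

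The line difference of interferon-stimulated genes was already there in full medium, where 27 were higher in ρ0 cells and 1 lower, with a median of 1.45. For 18 of the 51 genes the line difference was larger after starvation by the interaction test (adjusted p under 0.05) and for 1 it was smaller, a share no higher than the 40.4% of all tested genes whose line difference changed. OAS1, which makes the second messenger that activates RNase L, had 14.4 and 16.2 CPM in parental cells in full medium, 0.119 and 0.248 CPM in starved parental cells, 23.7 and 3.99 CPM in ρ0 cells in full medium, and 5.98 and 6.17 CPM in starved ρ0 cells. DDX58, the RNA sensor RIG-I, had 112 and 113 CPM in parental cells in full medium and 12.4 and 12.6 CPM after starvation, against 281 and 74.4 CPM and then 123 and 121 CPM in ρ0 cells. The starved levels of both genes were therefore lower than those in full medium in parental cells, and the 2 ρ0 libraries in full medium stood far apart. The number of interferon-stimulated genes with a changed line difference was 44 without ρ0 replicate 1 in full medium and 39 without ρ0 replicate 2, and between 8 and 10 without 1 of the other 6 libraries. The count of 39 higher genes lay between 36 and 40 when any 1 library was left out.

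**Figure D2:**
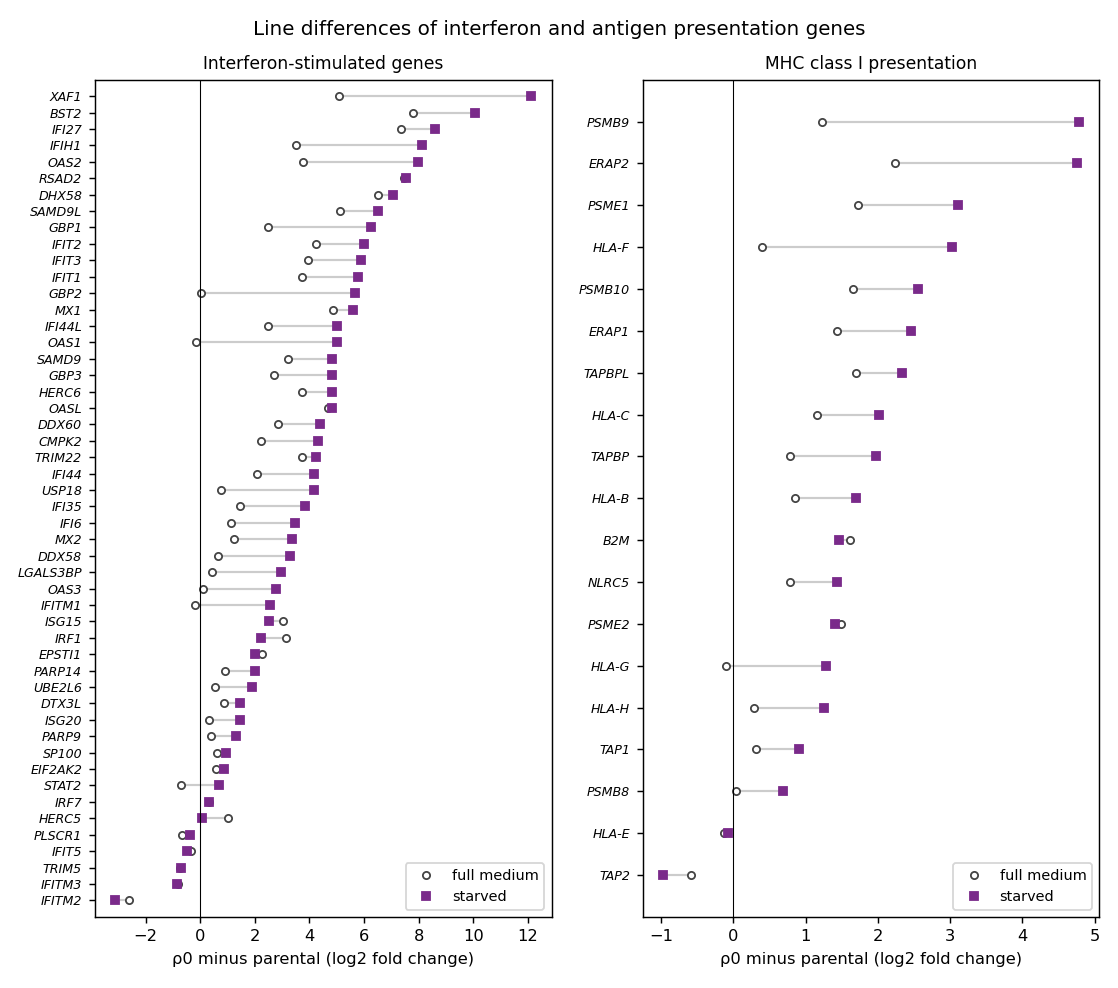
Line differences (log2 fold change of ρ0 minus parental cells, x axis) of 50 of the 51 tested interferon-stimulated genes, left, and 19 of the 20 tested genes of MHC class I presentation, right, in full medium (open circles) and after starvation (squares), joined by a line for each gene. Most squares lie right of 0, from XAF1 at the top, which had no counts in starved parental cells so that its position depends on the prior count, down to IFITM2.

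The letters before the start sites of these genes were read as well, since interferon-stimulated genes share a response element bound by STAT and IRF factors. Its core was searched as GAAANNGAA on both strands in the 250 bases before the start of each gene, in RefSeq promoters on GRCh38.p14. A promoter was found for 31 of the 39 higher genes, and 18 of these 31 (58.1%) held the core, against 7.06% of 27305 promoters of the same length. Of the 9 other tested members with a promoter, 6 held it, so that the core marked the list and did not separate the members that were higher. A match is a description of letters and not a bound site. The sequences below show the core in capitals, 5′ to 3′ on the strand of the gene, for higher genes named here and for the textbook interferon-stimulated genes RSAD2, IFIT1 and ISG15. BST2 is read from the minus strand at chr19:17405731-17405775, IFI27 from the plus strand at chr14:94110614-94110664, IFIH1 from the minus strand at chr2:162318825-162318863, RSAD2 from the plus strand at chr2:6865791-6865829, IFIT1 from the plus strand at chr10:89392493-89392544 and ISG15 from the plus strand at chr1:1013369-1013419. Adjoining cores overlap in BST2 and ISG15, and IFI27 and IFIT1 hold a pair each.
BST2: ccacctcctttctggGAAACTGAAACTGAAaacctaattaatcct
IFI27: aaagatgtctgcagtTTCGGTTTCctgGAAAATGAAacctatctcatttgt
IFIH1: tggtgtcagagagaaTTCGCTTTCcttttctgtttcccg
RSAD2: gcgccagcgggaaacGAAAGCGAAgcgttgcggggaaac
IFIT1: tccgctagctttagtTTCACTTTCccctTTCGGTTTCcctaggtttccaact
ISG15: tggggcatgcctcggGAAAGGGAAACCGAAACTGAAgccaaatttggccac

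Genes that present peptides on MHC class I moved in the same direction. Of 20 tested, 15 were higher in starved ρ0 cells and 0 were lower (1 with an unadjusted p under 0.05, and 0 by DESeq2 or limma-voom), with a median of 1.65 (1.01 in full medium). The share of higher genes, 75%, stands beside 18.7% of all tested genes. The largest differences were those of PSMB9, a catalytic subunit of the immunoproteasome, at 0.95 and 1.06 CPM in starved parental against 26.7 and 29 CPM in starved ρ0 cells, and of ERAP2, which trims peptides in the endoplasmic reticulum, at 0.832 and 0.709 against 20.5 and 20.9 CPM. PSME1, which activates the proteasome, had 26 and 26.4 against 225 and 228 CPM (log2 3.11, standard error 0.13, adjusted p = 1.8e-06), and HLA-F was higher too (log2 3.03, standard error 0.39, adjusted p = 3.2e-04). B2M, the light chain of MHC class I, had 496 and 520 against 1390 and 1399 CPM. HLA genes share long stretches of sequence, among which the counting could have divided reads.

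Cytokines and targets of NF-κB split into both directions. Of 33 tested, 12 were higher and 8 lower in starved ρ0 cells, with a median of 0.52. These are 36.4% and 24.2%, beside 18.7% and 16.8% of all tested genes. In full medium 3 were higher and 15 lower, with a median of -0.71. ICAM1, the adhesion molecule that holds leukocytes, had 0.673 and 0.744 CPM in starved parental and 179 and 170 CPM in starved ρ0 cells (log2 7.93, standard error 0.20, adjusted p = 4.1e-07). BIRC3, an inhibitor of apoptosis, had 47.9 and 49.4 against 626 and 647 CPM, and the growth factor CSF2 had 26.4 and 24.8 against 208 and 204 CPM. CSF2 did not differ between the lines in full medium beyond the spread (log2 -0.08), and its line difference changed with starvation (interaction adjusted p = 4.5e-05). CCL5 had 1 and 3 against 107 and 42 counts. On the other side, CCL2, which attracts monocytes, had 1458 and 1798 counts in starved parental and 0 and 3 in starved ρ0 libraries, a ratio of 1091 (373 to 5292). PTGS2, the inducible cyclooxygenase, had 39.7 and 43.3 against 1.22 and 1.04 CPM. IL11 had 654 and 629 against 57.3 and 60 CPM, and IL1B had 134 and 130 against 17.4 and 17.2 CPM. For 22 of the 33 genes the line difference was more positive after starvation by the interaction test and for 1 it was more negative.

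The ATF4 program is an arm of the starvation response that the study followed. ATF4 had 543 and 537 CPM in starved parental and 322 and 319 CPM in starved ρ0 cells, and the difference was significant but below the fold threshold (log2 -0.75, standard error 0.14, adjusted p = 0.0023). In full medium the lines did not differ beyond the spread (log2 0.10, adjusted p = 0.56). EIF2AK4 had 131 and 131 against 112 and 113 CPM. XBP1, a factor of the unfolded protein response, had 491 and 458 against 310 and 309 CPM (log2 -0.61, adjusted p = 0.008). ATF3, an ATF4 target, had 166 and 170 against 74 and 71.5 CPM and was lower (log2 -1.21, standard error 0.18, adjusted p = 6.4e-04), though not against a 2-fold change, and INHBE, a stress hormone subunit, was lower too, at 6.57 and 7.02 against 0.338 and 0.373 CPM. The asparagine synthetase ASNS had 407 and 415 against 409 and 412 CPM, and the ranges of the 2 lines overlapped (log2 0.00, standard error 0.26).

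Of 34 tested members of the ATF4 and CHOP program, 12 were higher, 2 lower and 20 not called, beside 18.7% and 16.8% of all tested genes, with a median of 0.56 (0.24 in full medium). CHOP (DDIT3) had 30.7 and 29 CPM in starved parental and 94.9 and 87.2 CPM in starved ρ0 cells (log2 1.61, standard error 0.19, adjusted p = 2.1e-04). TRIB3, a pseudokinase that CHOP induces, had 40.7 and 38.4 against 174 and 163 CPM (log2 2.09, standard error 0.30, adjusted p = 5.8e-04). GDF15, a secreted stress hormone, had 55.2 and 48.5 against 320 and 273 CPM, NUPR1 had 1.35 and 1.28 against 20 and 18.9 CPM, and CDSN had 0.554 and 0.496 against 3.38 and 4.06 CPM. LAMP3, a lysosomal membrane protein, had 1.39 and 1.49 against 37.2 and 34.7 CPM, whereas in full medium it had 9.23 and 10.7 CPM in parental and 1.35 and 1.64 CPM in ρ0 cells, so that its direction was opposite. The element TGATGNAA of C/EBP and ATF factors, searched in the same way, was in 3 of 29 promoters of the list (10.3%) and in 3.19% of all promoters, and in 0 of the 10 promoters of members called higher. Of 32 tested genes of folding in the endoplasmic reticulum and its sensors, 5 were higher and 1 lower. These shares, 15.6% and 3.12%, were below the 18.7% and 16.8% of all tested genes. HSPA5, the chaperone BiP, had 1055 and 1058 against 2601 and 2554 CPM (log2 1.29, standard error 0.20, adjusted p = 7.9e-04), PDIA4, a disulphide isomerase, had 69.9 and 66.2 against 364 and 357 CPM, and its partner in the secretory pathway SDF2L1 was lower (log2 -1.32, adjusted p = 5.6e-04).

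**Figure D3:**
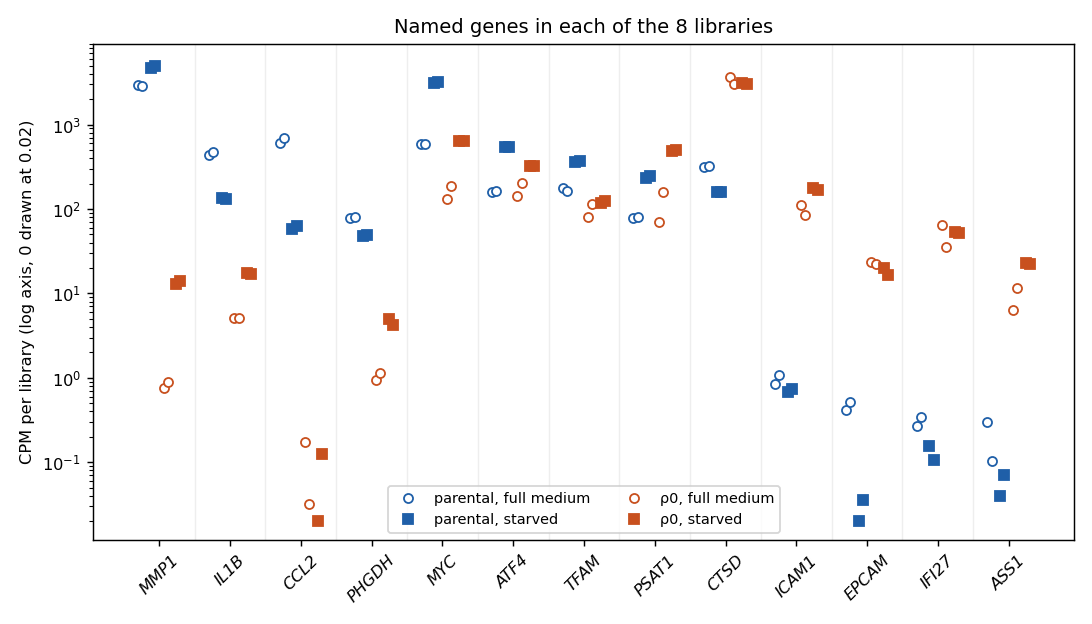
Levels (CPM) of 13 named genes in each of the 8 libraries on a log axis, with parental cells in blue, ρ0 cells in orange, full medium as open circles and starved cells as filled squares, and values of 0 drawn at 0.02. MMP1, IL1B, CCL2 and PHGDH are lower and ICAM1, EPCAM, IFI27 and ASS1 higher in ρ0 cells under both conditions.

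ASS1, whose absence makes cells depend on arginine, was read in starved ρ0 cells. It had 1 and 2 counts in the starved parental libraries and 684 and 538 in the starved ρ0 libraries, a ratio of 405 (138 to 1968), with 23.1 and 22.3 CPM. In full medium it had 0.3 and 0.104 CPM in parental and 6.35 and 11.5 CPM in ρ0 cells, and the line difference was larger after starvation (interaction adjusted p = 0.044). Of 37 tested genes of arginine and aspartate metabolism, 2 were higher, ASS1 and the glutamate transporter SLC1A1, and 6 were lower, with a median of -0.46. The share of lower genes, 16.2%, was near the 16.8% of all tested genes. ARG2, the mitochondrial arginase, had 37.5 and 38.7 against 9.97 and 9.07 CPM (standard error 0.20 on the log2 scale, adjusted p = 9.0e-05). SLC1A3, which takes up aspartate and glutamate, had 22.5 and 24.7 against 5.71 and 6.3 CPM (log2 -1.98, standard error 0.18, adjusted p = 6.0e-05). ODC1, the first enzyme of polyamine synthesis, had 1529 and 1456 against 597 and 584 CPM, and CPS1, which makes carbamoyl phosphate for the urea cycle, was lower as well (log2 -1.31, adjusted p = 0.0042). ODC1 lost its call against a 2-fold change and without starved ρ0 replicate 2.

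The malate-aspartate shuttle, which carries the electrons of glycolysis into mitochondria, showed differences below 2-fold. GOT1, its cytosolic transaminase, had 77.1 and 81.6 against 118 and 115 CPM (log2 0.56, adjusted p = 0.0023), while mitochondrial GOT2 had 288 and 298 against 152 and 149 CPM (log2 -0.96, adjusted p = 5.8e-05). Likewise cytosolic MDH1 was above 0 (log2 0.67, adjusted p = 0.0047) and mitochondrial MDH2 below it (log2 -0.37, adjusted p = 0.003). The cytosolic members of these enzyme pairs thus had more and the mitochondrial members fewer reads in starved ρ0 cells, none of them past the fold threshold. The carriers SLC25A10 (log2 0.68, adjusted p = 0.017) and SLC25A11 (log2 0.09, adjusted p = 0.68) were not called.

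Of the serine pathway, PHGDH, its first enzyme, had 48 and 49.4 CPM in starved parental and 5 and 4.22 CPM in starved ρ0 cells (log2 -3.40, standard error 0.12, adjusted p = 1.1e-06). In full medium the difference was larger, with 78.4 and 81.3 against 0.937 and 1.13 CPM, and the interaction was significant (adjusted p = 1.7e-04). PSAT1, the second enzyme, was higher, at 235 and 246 against 486 and 499 CPM, but its call (log2 1.03, adjusted p = 0.02) was lost when any 1 of the 4 starved libraries was left out. PSPH, the last enzyme, did not differ beyond the spread (log2 0.03). Among 16 tested genes of serine and one-carbon metabolism 5 were higher and 3 lower (31.2% and 18.8%, beside 18.7% and 16.8% of all tested genes). They included AMT of the glycine cleavage system, which was higher (log2 3.38), and the folate enzyme MTHFD1, which was lower, at 227 and 240 against 93.7 and 95.9 CPM. Of 20 tested amino acid transporters 6 were higher and 2 lower (30% and 10%, beside 18.7% and 16.8% of all tested genes), with a median of 0.30. In full medium 5 of them were higher and 1 lower, with a median of 0.68. SLC38A2, which takes up small neutral amino acids, had 1346 and 1395 against 3037 and 3099 CPM (log2 1.16, standard error 0.09, adjusted p = 2.7e-05). SLC7A11, which exchanges cystine for glutamate, had 519 and 522 against 190 and 199 CPM (log2 -1.42, standard error 0.24, adjusted p = 0.0013). SLC7A1, the main importer of arginine, was not called (log2 -0.46, adjusted p = 0.036).

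**Figure D4:**
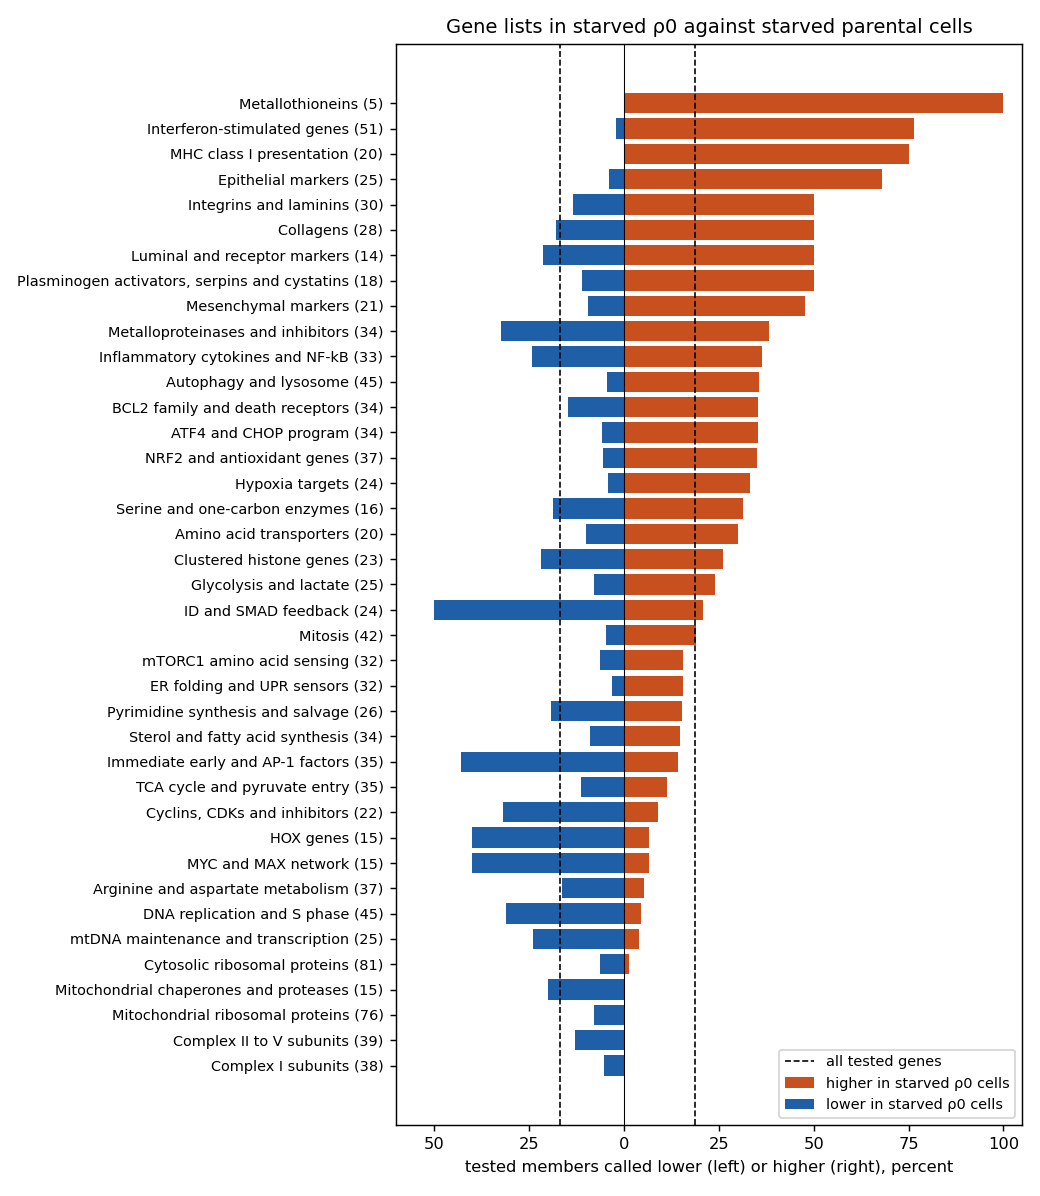
Percent of the tested members of 39 gene lists called higher (orange, right) or lower (blue, left) in starved ρ0 cells, with the number of tested members in parentheses and the percent of all tested genes as dashed lines. Metallothioneins (5 of 5 tested members), interferon-stimulated genes, MHC class I and epithelial lists reach furthest to the right. Of the 5 metallothioneins, 2 had 0 counts in both starved parental libraries. Lists of mitochondrial proteins have few or no members called higher.

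Few nuclear genes of mitochondrial proteins passed the fold threshold, and those that did were mostly lower. Lower calls were nevertheless rarer among the larger lists than the 16.8% of all tested genes. They were 5.26% for complex I, 12.8% for complexes II to V and 7.89% for mitochondrial ribosomal proteins. For mitochondrial DNA maintenance they were 24%, and for mitochondrial chaperones and proteases 20%. Of 38 tested subunits of complex I, 0 were higher and 2 lower, with a median of -0.13. At an unadjusted p under 0.05 and any fold change 11 were higher and 17 lower, and DESeq2 and limma-voom also called 0 higher. The 2 called were NDUFC1, at 28 and 28.5 against 13.2 and 14.1 CPM, and NDUFB8, at 28.1 and 29.7 against 15 and 13 CPM, both of which lost the call under upper quartile scaling. NDUFB7, with 13.6 and 12.8 against 25.3 and 25.5 CPM, was just under the fold threshold (log2 0.94, adjusted p = 1.0e-04), NDUFB10 followed (log2 0.69, adjusted p = 6.0e-04), then NDUFB6 (log2 0.32, adjusted p = 0.037), and NDUFV1 did not differ beyond the spread (log2 0.03). Of 39 tested subunits of complexes II to V, 0 were higher and 5 lower, with a median of -0.13. With an unadjusted p under 0.05 there were 13 higher and 19 lower, while the calls with higher levels were 0 by DESeq2 and 1 by limma-voom. Among them ATP5G1, a ring subunit of ATP synthase, had 122 and 126 against 31.9 and 30.9 CPM (log2 -1.98, standard error 0.14, adjusted p = 1.8e-05), UQCRH of complex III had 207 and 219 against 65.9 and 64.2 CPM, and COX6A1 of complex IV had 124 and 118 against 54.1 and 51.3 CPM. CYC1, cytochrome c1, lost its call without starved parental replicate 1.

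Of 76 tested mitochondrial ribosomal proteins, which build the ribosome that translates the mitochondrial genome, 0 were higher and 6 lower, with a median of -0.33 against 0.03 in full medium. At any fold change 32 of them were significantly lower and 10 higher (36 and 12 at an unadjusted p under 0.05), and DESeq2 and limma-voom gave the same 0 and 6 calls in number. MRPL37 had 190 and 194 against 66.9 and 61.2 CPM (log2 -1.58, standard error 0.14, adjusted p = 5.8e-05), and MRPS21 had 33.2 and 33.4 against 11.7 and 11.8 CPM. For 24 of the 76 the line difference was more negative after starvation and for 3 more positive, a share below the 40.4% of all tested genes. These 27 became 56 or 54 without ρ0 replicate 1 or 2 in full medium, and between 8 and 13 without 1 of the other libraries. Among 25 tested genes of mitochondrial DNA maintenance and transcription, 1 was higher and 6 lower, with a median of -0.65. TFAM, which packages mitochondrial DNA and starts its transcription, had 360 and 373 against 117 and 124 CPM (log2 -1.60, standard error 0.16, adjusted p = 8.5e-05), and POLG, the mitochondrial DNA polymerase, had 137 and 129 against 65 and 66.5 CPM (log2 -1.02). The line difference of TFAM was larger after starvation than in full medium (log2 -0.81 there, interaction adjusted p = 0.024). The exception was TK2, the mitochondrial thymidine kinase, with 8.55 and 8.15 against 32.8 and 33.7 CPM (log2 1.99, standard error 0.10, adjusted p = 3.9e-06), while in full medium all 4 libraries lay between 27.2 and 30.7 CPM. Of 15 mitochondrial chaperones and proteases, 0 were higher and 3 lower, namely GRPEL1, TRAP1 and CLPP, with 2 higher and 7 lower at an unadjusted p under 0.05 and again 0 and 3 by DESeq2 and by limma-voom.

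In central carbon metabolism the calls went both ways. Of 35 tested genes of the TCA cycle and pyruvate entry, 4 were higher and 4 lower. Each share, 11.4%, was below the 18.7% and 16.8% of all tested genes. IDH1, the cytosolic isocitrate dehydrogenase, had 3.05 and 4.25 CPM in starved parental and 76 and 75.1 CPM in starved ρ0 cells (log2 4.36, standard error 0.37, adjusted p = 4.0e-05), while its levels in full medium, 51.1 and 56.6 against 83.1 and 39.7 CPM, overlapped. PDHB, a subunit of pyruvate dehydrogenase, had 34.7 and 34.8 against 108 and 110 CPM, and PDK4, which inhibits that complex, had 1.39 and 1.42 against 4.8 and 5.72 CPM. Citrate synthase (CS) was lower, at 212 and 218 against 82.3 and 85.6 CPM (log2 -1.36, standard error 0.09, adjusted p = 1.2e-05), as were IDH2, IDH3A and DLST. Without starved ρ0 replicate 2, IDH2 and DLST lost the call and 2 genes of the list were lower. Of 25 glycolysis genes 6 were higher and 2 lower, with a median of 0.44. The share of higher genes, 24%, was not far from the 18.7% of all tested genes, and that of lower genes, 8%, was below 16.8%. The glucose transporter SLC2A3 had 68.9 and 69.4 against 273 and 268 CPM (log2 1.97, standard error 0.09, adjusted p = 2.9e-06), with no difference past the threshold in full medium (log2 0.26). PFKFB2 and PFKFB4, which set the level of an activator of phosphofructokinase, were higher (log2 2.77 and 2.47), and the related PFKFB3 was lower, at 235 and 237 against 69.4 and 69.3 CPM. HK1, the first enzyme of glycolysis, was lower as well (log2 -1.08). ACSS1 and ACSS2, which make acetyl-CoA from acetate in mitochondria and cytosol, had log2 fold changes of 1.36 and 1.13 after starvation and -0.49 and -0.60 in full medium, and both line differences changed with starvation (interaction adjusted p = 0.013 and 9.1e-04). ρ0 cells need uridine because DHODH, an enzyme of pyrimidine synthesis, passes its electrons to the respiratory chain. DHODH was lower in starved ρ0 cells, at 43.5 and 42.8 against 15.7 and 16.4 CPM (log2 -1.43, standard error 0.29, adjusted p = 0.0034), and so were CTPS2 and TYMS, of which CTPS2 lost the call without starved ρ0 replicate 2. UMPS, at the fold threshold, was called lower here but not with DESeq2. The enzymes of pyrimidine salvage and breakdown CDA, TYMP and DPYD were higher. CDA, cytidine deaminase, had 3.25 and 3.3 against 59.5 and 57 CPM (log2 4.15, standard error 0.17, adjusted p = 1.8e-06). In the whole list of 26 tested genes, 4 were higher and 5 lower (15.4% and 19.2%, beside 18.7% and 16.8% of all tested genes).

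Of 45 tested genes of DNA replication 2 were higher and 14 lower in starved ρ0 cells, which is 4.44% and 31.1% of them beside 18.7% and 16.8% of all tested genes, with a median of -0.71, while in full medium 6 were higher and 0 lower by the same test, with a median of 0.28. For 28 of the 45 the line difference was more negative after starvation and for 2 more positive. MCM2, a subunit of the replicative helicase, had 283 and 263 CPM in starved parental and 91.2 and 91.5 CPM in starved ρ0 cells (log2 -1.58, standard error 0.26, adjusted p = 0.0011). ORC1, of the origin recognition complex, had 16.4 and 15.1 against 4.16 and 4.18 CPM, GINS3 had 49.2 and 52.1 against 15.4 and 15 CPM, and TYMS, thymidylate synthase, had 35.1 and 34.5 against 11 and 11.1 CPM. FAM111B, which accumulates in S phase, was lower after starvation (log2 -2.06, adjusted p = 0.0028) and higher in full medium (log2 1.34, adjusted p = 0.016). Among the 2 that were higher was the ligase LIG1, at 9.11 and 9.75 against 27.1 and 25.8 CPM. ρ0 cells in full medium were again the loose group, for example with 20.8 and 41.5 CPM of ORC1. Without ρ0 replicate 1 or 2 in full medium the number of replication genes with a changed line difference was 43 or 38, and it lay between 17 and 19 without 1 of the other libraries.

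Of 42 mitosis genes, 8 were higher and 2 lower in starved ρ0 cells, with a median of 0.19. The share of higher genes, 19%, was that of all tested genes, 18.7%. CDC25B, the phosphatase that starts mitosis, had 63.1 and 65.6 against 324 and 328 CPM (log2 2.34, standard error 0.08, adjusted p = 1.0e-06). CCNB1, cyclin B1, had 24.4 and 23.1 against 117 and 114 CPM, and CENPF and TOP2A were higher too (log2 1.84 and 1.37). CDC25A, which acts earlier in the cycle, had 132 and 128 against 56.5 and 57.9 CPM (log2 -1.18, adjusted p = 0.01), and lost its call without either starved ρ0 library. MKI67, the usual marker of dividing cells, had 158 and 144 against 98.9 and 98 CPM (log2 -0.62, adjusted p = 6.3e-04) and is named here after its values were seen. Of 22 cyclins, CDKs and their inhibitors 2 were higher and 7 lower (9.09% and 31.8%, beside 18.7% and 16.8% of all tested genes). Cyclin D2 (CCND2) had 262 and 271 against 27.4 and 27 CPM (log2 -3.29, standard error 0.07, adjusted p = 3.0e-07), while RBL2, a retinoblastoma-like repressor, had 7.56 and 8.76 against 38.8 and 41.5 CPM, MLLT3, 1 of 2 tested genes of the 9p21 region, was called higher too, and MDM2, a ubiquitin ligase, was lower (log2 -1.32). Of 15 genes of the MYC network 1 was higher and 6 lower (6.67% and 40%). MYC had 3102 and 3154 CPM in starved parental and 634 and 637 CPM in starved ρ0 cells (log2 -2.30, standard error 0.15, adjusted p = 1.3e-05), and its line difference did not change detectably with starvation (interaction adjusted p = 0.15). Of 81 cytosolic ribosomal proteins 1 was higher and 5 lower (1.23% and 6.17%), with a median of -0.09, and many of them have copies that share reads.

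**Figure D5:**
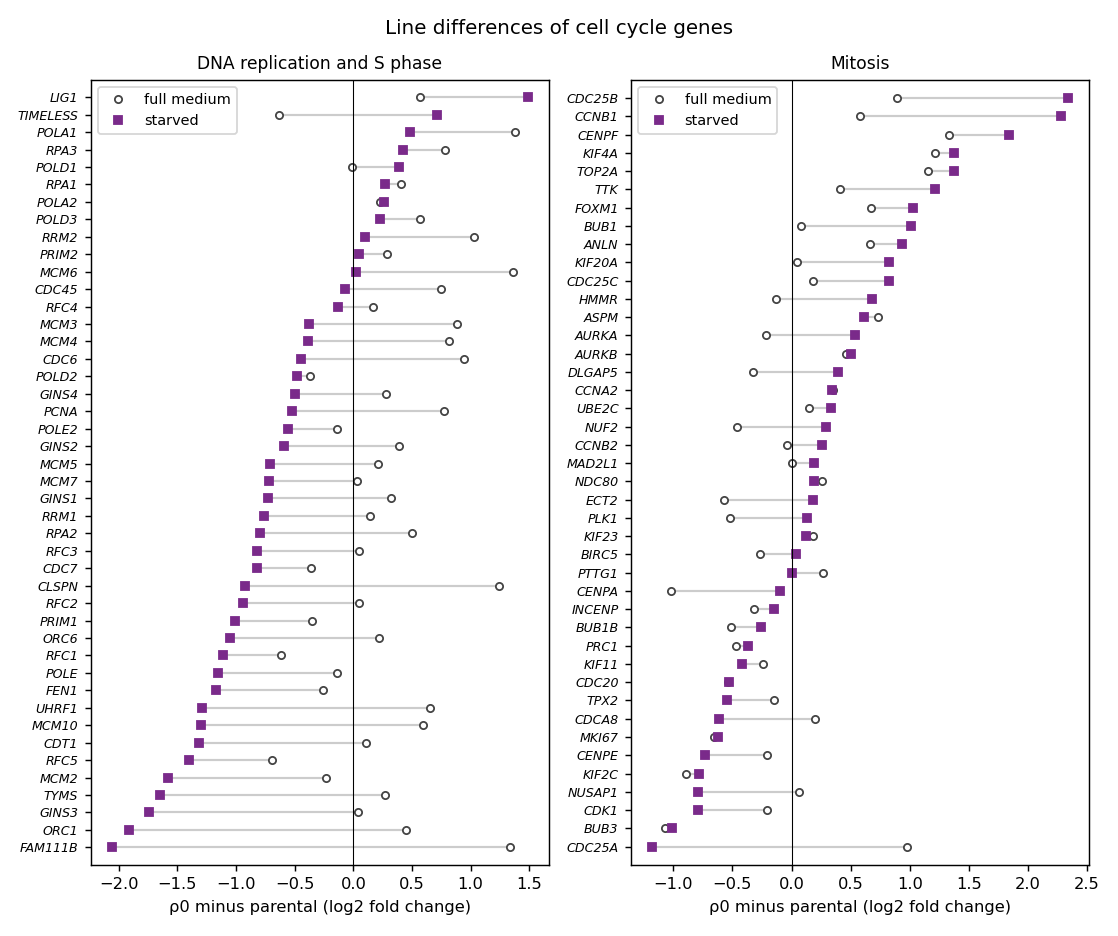
Line differences (log2 fold change of ρ0 minus parental cells, x axis) of 44 of the 45 tested genes of DNA replication, left, and the 42 tested mitosis genes, right, in full medium (open circles) and after starvation (squares). Most replication genes lie further left after starvation than in full medium, with medians of -0.71 and 0.28 over all 45, and the mitosis genes have medians of 0.19 and 0.03.

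Of 35 tested immediate early and AP-1 genes, which growth signals induce first, 5 were higher, 15 lower and 15 not called, and the 42.9% that were lower stand beside 16.8% of all tested genes. EGR1 had 155 and 161 CPM in starved parental and 12.3 and 11.7 CPM in starved ρ0 cells (log2 -3.72, standard error 0.54, adjusted p = 6.1e-04). FOS had 35 and 34.1 against 1.83 and 1.62 CPM, FOSB had 22.2 and 25.5 against 2.81 and 2.36 CPM, and EGR3 had 10.1 and 11 against 0.27 and 0.207 CPM. In each of these 4 genes both starved parental libraries were above the 6 other libraries. KLF4 and the feedback phosphatase DUSP4 were higher, with 119 and 113 against 316 and 306 CPM of KLF4 (log2 1.42, standard error 0.11, adjusted p = 2.3e-05). The AP-1 site TGACTCA was in 0 of 25 promoters of this list and in 4.16% of all promoters. Of 24 genes of the ID family, SMADs and their ligands, 5 were higher and 12 lower (20.8% and 50%, beside 18.7% and 16.8% of all tested genes). ID3, an inhibitor of differentiation factors that BMP signals induce, had 60.5 and 57.5 against 2.1 and 1.74 CPM (log2 -4.93, standard error 0.52, adjusted p = 1.2e-04), and ID2 had 8.12 and 10 against 1.15 and 0.953 CPM. The ligand BMP2 had 48.5 and 49.2 against 0.237 and 0.166 CPM, whereas BMP4 had 17.1 and 16.2 against 63.4 and 61.7 CPM and TGFB2 was higher as well (log2 1.70).

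Epithelial markers were higher in starved ρ0 cells, and so were several mesenchymal markers. Of 25 tested epithelial markers 17 were higher and 1 lower, with a median of 3.14 (1.80 in full medium). These are 68% and 4%, beside 18.7% and 16.8% of all tested genes. EPCAM had 0 and 1 counts in starved parental and 586 and 397 in starved ρ0 libraries. E-cadherin (CDH1), whose loss marks mesenchymal cells, had 0 and 2 against 141 and 104 counts. Keratin 7 (KRT7) had 7.56 and 7.94 against 434 and 432 CPM (standard error 0.29 on the log2 scale, adjusted p = 3.9e-06), and the epithelial factor ELF3 had 0.198 and 0.213 against 56.7 and 55.3 CPM. CD24 was the one marker that was lower, at 43 and 41.7 against 3.21 and 2.78 CPM. With at least 10 counts required in every library, 13 epithelial markers were left, of which 6 were higher and 1 lower. Of 21 tested mesenchymal markers 10 were higher and 2 lower (47.6% and 9.52%), with a median of 1.05. VIM had 540 and 522 against 2034 and 1826 CPM (log2 1.86, standard error 0.12, adjusted p = 1.3e-05), S100A4 had 2.3 and 1.95 against 254 and 257 CPM, and TGFBI had 1.39 and 1.21 against 154 and 147 CPM. SNAI1, a repressor of E-cadherin, was lower, at 19.5 and 22.9 against 1.35 and 1.12 CPM (log2 -4.09, standard error 0.18, adjusted p = 2.5e-06), and FOXC1 was lower too (log2 -1.16). Of 14 tested luminal and receptor markers 7 were higher and 3 lower (50% and 21.4%). Of the 7 with at least 10 counts in every library 3 were higher and 0 lower. AGR2 had 1.19 and 1.35 against 59.3 and 58.9 CPM, MLPH had 17.3 and 15.3 against 164 and 171 CPM, and TFF1 had 0 and 0 against 70 and 42 counts. FOXA1, the luminal pioneer factor, had 236 and 277 against 4 and 1 counts. ERBB2 had 30.1 and 30.5 against 58.9 and 62 CPM, at the fold threshold itself, and was not called here but was with DESeq2.

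Matrix genes differed in both directions and widely. Of 30 integrins and laminins 15 were higher and 4 lower (14 and 1 of the 23 with at least 10 counts in every library), and of 28 collagens 14 were higher and 5 lower. ITGB4, an integrin chain that binds laminin, had 2.53 and 1.99 against 306 and 305 CPM. ITGB3 had 3 and 3 against 815 and 699 counts, and ITGA2, a receptor for collagen, had 109 and 107 against 785 and 800 CPM. COL6A1 had 9.5 and 9.78 against 639 and 628 CPM (log2 6.04, standard error 0.13, adjusted p = 2.3e-07), COL4A5 had 2 and 7 against 2399 and 1970 counts, and COL12A1 was lower, at 282 and 272 against 47.9 and 45.5 CPM. LAMA1 had 20.4 and 21.2 against 0.372 and 0.538 CPM. Of 34 metalloproteinases and their inhibitors 13 were higher and 11 lower, or 38.2% and 32.4%. Of the 19 with at least 10 counts in every library 9 were higher and 4 lower. MMP1, the interstitial collagenase, had 119556 and 138001 counts in starved parental and 385 and 335 in starved ρ0 libraries (log2 -8.48, standard error 0.12, adjusted p = 1.1e-07). Its level in ρ0 cells was higher after starvation, at 13 and 13.9 CPM, than in full medium, at 0.763 and 0.9 CPM, and the line difference was smaller (interaction adjusted p = 5.2e-05). MMP3, stromelysin, had 8330 and 9730 against 1 and 1 counts, MMP10 had 79 and 104 against 2 and 0, and ADAMTS1 had 15058 and 16832 against 25 and 20. The inhibitor TIMP3 was higher, at 18.8 and 17 against 387 and 395 CPM (log2 4.45, standard error 0.22, adjusted p = 3.9e-06), and TIMP4 had 0 and 0 against 141 and 88 counts, at least 37.4-fold higher.

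Plasminogen activators and their inhibitors were also unlike. Of 18 tested genes with serpins and cystatins, 9 were higher and 2 lower (50% and 11.1%, beside 18.7% and 16.8% of all tested genes), with a median of 0.98. Of the 12 with at least 10 counts in every library, 4 were higher and 1 lower, with a median of 0.42. PLAT, tissue plasminogen activator, had 94.3 and 95.2 CPM in starved parental and 1490 and 1542 CPM in starved ρ0 cells (standard error 0.37 on the log2 scale, adjusted p = 6.2e-05), and PLAU, urokinase, had 61.3 and 57.8 against 380 and 385 CPM. SERPINB2, the plasminogen activator inhibitor 2, had 443 and 450 against 3.55 and 3.02 CPM (log2 -7.08, standard error 0.19, adjusted p = 4.2e-07). The secreted cystatins CST1, CST2 and CST4 had at most 3 counts in each starved parental library, with 382 and 337 counts of CST1, 141 and 137 of CST2 and 153 and 127 of CST4 in starved ρ0 libraries. These paralogs lie side by side and the counting could have divided their reads.

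Of the antioxidant genes, 13 of 37 tested were higher and 2 lower (35.1% and 5.41%, beside 18.7% and 16.8% of all tested genes), with a median of 0.83. With at least 10 counts in every library 33 were tested, of which 10 were higher and 2 lower, with a median of 0.45. NQO1, the quinone reductase that NRF2 induces, had 5.98 and 7.02 against 150 and 154 CPM (log2 4.55, standard error 0.23, adjusted p = 4.1e-06), the secreted peroxidase GPX3 had 4.83 and 5.14 against 75.5 and 77.2 CPM, and AKR1C1 had 0 and 0 against 140 and 133 counts. TXNRD2, the mitochondrial thioredoxin reductase, was lower, at 102 and 97.1 against 19.4 and 21.5 CPM (log2 -2.28, standard error 0.19, adjusted p = 4.1e-05). All 5 tested metallothioneins were higher, and MT2A, the most abundant, had 28.3 and 28.6 against 107 and 108 CPM. Of 13 in the table, 8 were untested, and 2 of the 5 had 0 counts in both starved parental libraries. With at least 10 counts in every library 3 were tested and 3 higher. In full medium 2 of the 5 were higher and 1 lower. Of 24 hypoxia targets 8 were higher and 1 lower (33.3% and 4.17%, beside the same 18.7% and 16.8%). EGLN3, an oxygen-sensing hydroxylase, had 0.792 and 0.674 against 18.9 and 17.4 CPM, VEGFA had 269 and 255 against 1049 and 1039 CPM (standard error 0.14 on the log2 scale, adjusted p = 1.8e-05), and adrenomedullin (ADM) was lower (log2 -1.51).

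Of 45 tested genes of autophagy and lysosomes 16 were higher and 2 lower (35.6% and 4.44%, beside 18.7% and 16.8% of all tested genes). The aspartic protease cathepsin D (CTSD) had 161 and 159 against 3125 and 3034 CPM (log2 4.27, standard error 0.12, adjusted p = 5.0e-07), cathepsin S (CTSS) had 1.23 and 1.67 against 79.4 and 78.7 CPM, and the autophagy kinase ULK2 had 0 and 0 against 223 and 171 counts, at least 64.9-fold higher. The factors TFEB and MITF, which drive lysosomal genes, were lower (log2 -1.62 and -1.63). Of 32 genes by which mTORC1 senses amino acids 5 were higher and 2 lower (15.6% and 6.25%, beside 18.7% and 16.8% of all tested genes). SLC38A9, the lysosomal sensor of arginine, had 19.2 and 17.3 against 48.6 and 46.4 CPM (log2 1.38, standard error 0.11, adjusted p = 3.2e-05), and DEPTOR, an mTOR inhibitor, had 5.11 and 4.61 against 0.541 and 0.663 CPM. TSC1 and TSC2, which restrain mTORC1, were not called (log2 0.16 and 0.64). Of 34 genes of the BCL2 family and death receptors 12 were higher and 5 lower (35.3% and 14.7%, beside 18.7% and 16.8% of all tested genes). Beside TRAIL and BIRC3 above, the decoy receptor TNFRSF10D was lower, at 478 and 490 against 53.3 and 51.7 CPM (log2 -3.21, standard error 0.30, adjusted p = 6.5e-05), as were caspase 4 (CASP4), at 151 and 149 against 23.5 and 20.8 CPM, and BCL2A1, with 118 and 123 against 3 and 2 counts. Of 34 genes of sterol and fatty acid synthesis 5 were higher and 3 lower, whereas in full medium 1 was higher and 14 lower. The starved shares, 14.7% and 8.82%, were below the 18.7% and 16.8% of all tested genes. EBP, a sterol isomerase, had 1.66 and 1.74 against 46.8 and 47.2 CPM, and FASN, fatty acid synthase, was lower, at 952 and 929 against 328 and 331 CPM (log2 -1.51, standard error 0.10, adjusted p = 1.6e-05).

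To ask which differences belonged to the lines and which came with starvation, the line difference was also fitted in full medium. There 2074 genes, or 13.6%, were higher and 2644, or 17.3%, were lower in ρ0 cells. Of the 5415 genes called after starvation, 2878 were called in the same direction in full medium, which is 53.1% of the starved calls and 61% of the 4718 calls in full medium. A further 2406 were called after starvation and not in full medium, and of these 1699 also had a significant interaction, so that for the other genes the difference between conditions was not shown. Across the 15262 genes the 2 line differences had r = 0.803 as a description of these libraries, since genes are not replicates. The genes near 0 in only 1 of the starved lines were also followed into full medium. Of the 41 genes absent from starved ρ0 and present in starved parental cells, 37 had at most 3 counts in both ρ0 libraries in full medium as well. Of the 42 genes absent from starved parental and present in starved ρ0 cells, 17 were absent from parental cells in full medium too, and 20 had more than 3 counts in both of those libraries.

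The line difference changed with starvation for 6167 genes, or 40.4% of those tested, at an adjusted p under 0.05 in the interaction test without a fold threshold, and 3037 of them changed by more than 1 on the log2 scale. Of the changed genes, 2576 were also called in starved cells, and in 2152 of these (83.5%) the 2 parental group means lay further apart between media than the 2 ρ0 means, on the log2(CPM + 0.5) scale, which held for 68.9% of all tested genes. Since the 2576 were taken for their call in starved cells, this is a description. The number of genes with a changed line difference depended on the loose ρ0 pair: it was 10277 without ρ0 replicate 1 and 9269 without ρ0 replicate 2 in full medium, and between 3513 and 3952 without 1 of the other 6 libraries.

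Called genes with the most positive change included ANGPTL2, a secreted angiopoietin-like protein, with 33.4 and 30.6 CPM in parental cells in full medium, 0.713 and 0.744 CPM in starved parental cells, 142 and 64.7 CPM in ρ0 cells in full medium and 116 and 116 CPM in starved ρ0 cells. TNS4 had 16.5 and 17.6 CPM in parental cells in full medium, fewer than 0.2 CPM after starvation, and 379 and 441 and then 165 and 168 CPM in ρ0 cells. GBP2, an interferon-induced GTPase, had 40.1 and 43 CPM and then 0.317 and 0.425 CPM in parental cells, and 58.8 and 25.6 and then 18.7 and 19.5 CPM in ρ0 cells. In these genes the low group was starved parental cells. CST1 and CST4 had the same pattern, with 55 and 57.3 CPM of CST1 and 27 and 28.7 CPM of CST4 in parental cells in full medium. NFATC4 and CD33 were lower in ρ0 cells under both conditions, with at most 4 counts in each starved ρ0 library and 0 in full medium, so that the size of their change depends on the prior count, as it does for APOL3 and XAF1, which had 0 counts in starved parental cells.

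Among the genes with the most negative change, ID3 had 5.82 and 5.63 CPM in parental cells in full medium and 60.5 and 57.5 CPM after starvation, against 9.51 and 29.2 CPM and then 2.1 and 1.74 CPM in ρ0 cells. EGR1 had 11.3 and 11.9 and then 155 and 161 CPM in parental cells, and 6.42 and 26.2 and then 12.3 and 11.7 CPM in ρ0 cells. HAS2, a hyaluronan synthase, had 3.57 and 3.02 and then 56.4 and 57.9 CPM in parental cells, and 7.7 and 4.34 and then 6.83 and 6.38 CPM in ρ0 cells. These genes were highest in starved parental cells. ADAMTS1, the extracellular matrix protein RELN, the receptor ADGRV1, the retinoic acid carrier CRABP2 and the pseudogene AADACP1 were lower in ρ0 cells under both conditions, with a larger gap after starvation. Without ρ0 replicate 2 in full medium the change was no longer significant for RELN (log2 -1.69, adjusted p = 0.32) or AADACP1 (adjusted p = 0.067). UCA1, a long noncoding RNA, was the reverse: it was higher in ρ0 cells under both conditions, with the gap smaller after starvation, at 0.752 and 0.851 against 33.8 and 35.4 CPM after starvation and 0.06 and 0.139 against 85.9 and 109 CPM in full medium.

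For 131 genes the direction itself was opposite, with both calls passed: 107 were higher in ρ0 cells after starvation and lower in full medium, and 24 the other way. In 120 of the 131 the parental means lay further apart between media than the ρ0 means. PLAU had 847 and 883 CPM in parental cells in full medium and 61.3 and 57.8 CPM after starvation, whereas ρ0 cells had 355 and 221 and then 380 and 385 CPM. NDRG1, a stress-induced protein of differentiation, had 846 and 708 and then 79.9 and 78.1 CPM in parental cells, against 307 and 211 and then 318 and 310 CPM in ρ0 cells. DUSP4, a phosphatase of MAP kinases, had 974 and 979 and then 195 and 198 CPM, against 489 and 482 and then 548 and 524 CPM. In all 3 the ρ0 libraries lay between the 2 parental groups. GSDMD, which forms the pores of pyroptosis, had 122 and 136 and then 10.1 and 9.25 CPM, against 63.2 and 46.6 and then 22 and 24.3 CPM. BDNF, a neurotrophin, went the other way, with 27.5 and 28.6 and then 142 and 143 CPM in parental cells and 55.4 and 81.6 and then 60 and 62.9 CPM in ρ0 cells. SEMA4B, NTN4, ASB1, ETV1 and NIPSNAP1 completed the 10 most abundant of these genes and were higher in ρ0 cells after starvation and lower in full medium. Without ρ0 replicate 1 in full medium 118 of the 131 genes kept opposite calls, and without ρ0 replicate 2 it was 84.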

How the data were processed

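RNA of MDA-MB-231 parental cells and of its ρ0 clone 27, in full medium or after 48 h of arginine starvation, was sequenced in 2 libraries per group (8 libraries). The authors deposited raw, unnormalised read counts for each gene symbol in 1 table. The submitters' processing notes name Bowtie, Partek and hg19, without versions. The annotation and the counting rules, strand included, are not given in the sources used here, so overlapping and antisense genes cannot be told apart. Genes are given by symbol.

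The analysis used edgeR 4.0.16 under R 4.3.3. Of 23393 genes, 20083 had a count and 15262 passed filterByExpr on the 4 groups. TMM scaling and the quasi-likelihood test were applied to all 8 libraries with 1 mean per group (4 residual degrees of freedom, prior 3.4, biological coefficient of variation 12.4%). Contrasts were ρ0 minus parental after starvation, the same in full medium, and their difference (interaction). P-values were adjusted by Benjamini-Hochberg over all tested genes. A call needed more than a 2-fold difference either way beside an adjusted p under 0.05, except that interactions were called at any size. The standard error of a log2 value was taken as its size over the root of the F statistic. Totals of 25259503 to 31022155 counts set the precision of low genes. A gene at 0 counts in both libraries of a group was given a bound against 3 counts per library, and one with 1 to 3 counts a ratio with a 95% exact (Clopper-Pearson) interval. The replicate numbers do not pair libraries, as correlations of deviations lay between -0.053 and 0.0386. Replicates of each group differed by more than sampling noise.

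The members, the 45 gene lists and the tests were chosen with earlier results of these data known. Lists are described by counts and medians beside all tested genes. The genes named were the 15 higher and 15 lower called genes with the largest log2 fold change, at least 10 CPM on average over the 4 starved libraries and no overlap, up to 4 higher and 4 lower called genes per list at 1 CPM or more, genes that the paper names, the 10 most positive and 10 most negative interactions among called genes, the 10 most abundant genes with opposite calls, and the markers. The remaining genes were chosen after their values were seen. These are POLG, HSPA5, DDIT3, TRIB3, B2M, IRF1, OAS1, DDX58, IFNB1, KRT7, MCM2, MKI67, SLC7A1, and the RSAD2, IFIT1 and ISG15 promoters. Some genes are not reported here, in the text or in the figures, but were kept in every fit and count. Alternatives were DESeq2's size factors, upper quartile and total count scaling, no filter, at least 10 counts in every library, DESeq2 1.42.0, limma-voom (limma 3.58.1), a replicate block, the starved libraries alone, a test against a 2-fold change, other fold thresholds and leaving out libraries. The main edgeR fit, DESeq2, limma-voom and the replicate block over 8 libraries were run on simulated data, and the other alternatives were not.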

Additional observations from a re-analysis of the deposited data

Results flagged for a closer look

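The line difference changed with starvation, by the interaction test of the difference itself, for 6167 genes at an adjusted p under 0.05. The 30 named genes among them were flagged because their line difference after starvation differed from that in full medium. The values are the starved minus the full-medium line difference on the log2 scale. Among called genes with the most positive change, the value was 8.79 for APOL3, 7.68 for CST1, 7.36 for LAMP3, 7.02 for XAF1, 6.42 for CST4, 6.29 for NFATC4, 6.14 for TNS4, 5.90 for CD33, 5.64 for GBP2 and 5.61 for ANGPTL2. Those of APOL3, XAF1, NFATC4 and CD33 depend on the prior count, since 1 group of each had 0 counts. Among called genes with the most negative change it was -6.69 for ID3, -4.50 for UCA1, -4.21 for EGR1, -3.97 for HAS2, -3.86 for RELN, -3.83 for AADACP1, -3.69 for ADAMTS1, -3.67 for ADGRV1, -3.40 for FAM111B and -3.01 for CRABP2. Among genes called in opposite directions it was 2.46 for DUSP4, 4.27 for PLAU, 3.58 for NDRG1, 2.94 for SEMA4B, 2.31 for NTN4, 2.37 for ASB1, -2.50 for BDNF, 2.49 for GSDMD, 3.07 for ETV1 and 3.25 for NIPSNAP1. All 30 kept their sign without ρ0 replicate 1 and without ρ0 replicate 2 in full medium. The change was smaller for RELN and AADACP1 without replicate 2. These are weak checks, since the 30 genes were picked from the line differences of the same libraries. Leaving out a library of the loose ρ0 pair also raised the number of genes with a changed line difference. The changes of the 30 genes without 1 of the other libraries are not given here.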

How the results depend on the processing

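The count of 2858 higher and 2557 lower genes in starved ρ0 cells stayed within 1.5 times under other scalings, filters and tools. The exceptions were any fold change (5024 and 5120), a log2 threshold of 2 either way (1361 and 1056) and, for lower genes, the test against a 2-fold change (1636, with 1969 higher). Without 1 library, higher genes ranged from 2650 to 3115 and lower genes from 2296 to 2670. In full medium, any fold change gave 4662 and 4847 genes, the stricter fold 853 and 1282, at least 10 counts in every library 1290 and 1586, and the test against a 2-fold change 1299 higher and 1773 lower genes, and without 1 library the ranges were 1888 to 2375 and 2441 to 2950. Total counts moved the share of higher calls in full medium from 44% to 38.8%. The interaction count of 6167 became 3037 with a change above 1 or below -1 (chosen after seeing the data) and ranged from 3513 to 10277 without 1 library. Without both ρ0 libraries in full medium, also chosen after seeing the data, 2951 genes were higher and 2519 lower after starvation. With a replicate block, 2854 and 2521 genes were called over 8 libraries, 2856 and 2383 in the starved libraries alone (2863 and 2381 without the block), and 5731 interactions, although the numbers do not pair the libraries. Of 293 named genes under all alternatives, 137 values lost and 12 gained the call and none reversed. Of 45 list medians, 193 values moved by more than the spread between libraries and 706 did not, and 7 changed sign. The cause was not tested. Groups of 2 libraries limit every test, and depth limits genes near 0 counts.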

Other observations

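The line difference was not spread evenly over chromosomes. Of the tested genes, 15090 (98.9%) had a chromosome by symbol in RefSeq. The median log2 fold change of ρ0 minus parental cells after starvation was highest on the X chromosome (0.63 over 503 genes, with 0.60 in full medium), followed by chromosome 9 (0.32 and 0.42) and chromosome 5 (0.27 and 0.31). It was lowest on chromosome 10 (-0.51 over 603 genes, with -0.46 in full medium), chromosome 8 (-0.40 and -0.35) and chromosome 15 (-0.38 and -0.46). On the X chromosome 32.8% of the genes were called higher and 13.7% lower, and on chromosome 10 it was 12.6% and 29.2%. These are descriptions of 2 lines, 1 of them a single clone, without a test.

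Of 15 tested HOX genes, 1 was higher and 6 lower in starved ρ0 cells (6.67% and 40%, beside 18.7% and 16.8% of all tested genes). HOXB9 had 192 and 185 CPM in starved parental and 76.5 and 77.5 CPM in starved ρ0 cells (log2 -1.29, adjusted p = 7.0e-06), with a larger gap in full medium (log2 -2.25). Of 23 clustered histone genes 6 were higher and 5 lower, with a median of -0.17. These shares, 26.1% and 21.7%, were not far from the 18.7% and 16.8% of all tested genes.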
